A study of Mus musculus with 28 samples.

Results

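The DEAD and DEAH box RNA helicases were taken as all genes whose platform annotation symbol is Ddx or Dhx followed by a number and an optional letter. The rule gave 51 genes of 18193, with 113 of the 34945 probe sets that carried 1 symbol; 17 genes had 1 probe set and 34 had several, at most 6. Where a gene had several, the brightest on average over all arrays stood for it. RNA was measured on 28 one-colour arrays from the testis of C57BL/6 adult males that were either wild type (WT) or GRTH-/- (KO). GRTH, the gonadotropin-regulated testicular RNA helicase, is the product of Ddx25 and so is itself a member. There were 10 groups. Elutriated cells of either genotype gave spermatocytes with 4 arrays per genotype, round spermatids with 3 and Leydig cells with 2; sucrose gradients gave polysome RNA of the whole testis with 3 per genotype; and WT polysome RNA was immunoprecipitated (IP) with GRTH antibody or IgG on 2 arrays apiece. No label says that the null allele was limited to 1 cell type, and none says whether arrays of a group came from separate animals, so p-values measure only the spread between arrays, which may be technical.

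DEAD and DEAH box proteins are ATP-driven enzymes that unwind or remodel RNA and RNA-protein complexes, and each is named after the amino acids of a conserved ATP-binding motif. Most act in a fixed step of the life of an RNA: splicing, assembly of ribosomes, passage through the nuclear pore, translation, storage or decay. Male germ cells depend on several of them because meiotic and early haploid cells store many transcripts and translate them days later, after chromatin has been compacted; Ddx4 (the mouse VASA protein) and Ddx25 are standard germ cell genes.

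Promoter sequences are shown for 5 members that the results turn on: Ddx25, the deleted gene, Ddx4, the germ cell marker, Ddx20, which had the largest rise from spermatocytes to round spermatids, and Ddx51 and Ddx43, which were among the largest falls. Each is the 250 bases before the first listed start in RefSeq (build GRCm38.p6), written 5′ to 3′ on the gene's own strand. Capitals mark TGACG (the core of the cyclic AMP response element), GGGCGG (the GC box) and CCAAT, each on either strand. Read from the other strand the first is CGTCA, the GC box is CCGCCC, and the last is ATTGG. The palindrome TGACGTCA holds the first motif once on each strand, in the Ddx4 promoter a CCAAT shares letters with it, and in the Ddx25 promoter the GC boxes overlap.
Ddx25 (chr9:35558471-35558720, minus strand): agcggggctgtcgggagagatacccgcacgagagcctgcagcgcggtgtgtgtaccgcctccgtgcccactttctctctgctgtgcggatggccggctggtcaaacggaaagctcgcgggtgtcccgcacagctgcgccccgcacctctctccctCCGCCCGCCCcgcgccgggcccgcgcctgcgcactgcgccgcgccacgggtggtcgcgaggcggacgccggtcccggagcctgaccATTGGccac
Ddx4 (chr13:112652311-112652560, minus strand): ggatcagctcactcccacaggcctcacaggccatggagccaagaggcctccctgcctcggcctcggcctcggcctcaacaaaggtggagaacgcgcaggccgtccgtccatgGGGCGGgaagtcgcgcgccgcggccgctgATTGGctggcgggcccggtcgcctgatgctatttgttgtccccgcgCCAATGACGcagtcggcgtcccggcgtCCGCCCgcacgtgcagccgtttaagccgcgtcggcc
Ddx20 (chr3:105687572-105687821, minus strand): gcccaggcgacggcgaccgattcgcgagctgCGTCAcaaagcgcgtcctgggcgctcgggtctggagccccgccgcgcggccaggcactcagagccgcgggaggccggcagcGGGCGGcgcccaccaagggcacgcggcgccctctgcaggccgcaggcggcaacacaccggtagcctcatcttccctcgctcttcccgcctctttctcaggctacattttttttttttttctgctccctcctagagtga
Ddx51 (chr5:110653201-110653450, plus strand): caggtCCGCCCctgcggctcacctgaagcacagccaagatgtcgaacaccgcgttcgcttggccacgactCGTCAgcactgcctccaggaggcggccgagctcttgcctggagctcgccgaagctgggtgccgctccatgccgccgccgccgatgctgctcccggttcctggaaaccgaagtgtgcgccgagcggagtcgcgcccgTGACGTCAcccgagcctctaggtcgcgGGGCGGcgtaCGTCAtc
Ddx43 (chr9:78395527-78395776, plus strand): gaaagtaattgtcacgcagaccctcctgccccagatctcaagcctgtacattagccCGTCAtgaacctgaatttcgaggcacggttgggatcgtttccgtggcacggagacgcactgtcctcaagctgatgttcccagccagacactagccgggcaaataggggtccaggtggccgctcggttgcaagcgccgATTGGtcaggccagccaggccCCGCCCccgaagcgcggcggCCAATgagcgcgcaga
By the same search over 45 members with a promoter entry, TGACG stood in 22 (48.9%), against 17.9% of all 27025 promoters listed, and GGGCGG in 28 (62.2%, against 32.9%). CCAAT was in 21 members (46.7%, against 34.5%), TATAAA in 1 (2.2%, against 13%), and the full TGACGTCA in 3 (6.7%, against 1.6%). TGACG was in 6 of the 8 members that rose from WT spermatocytes to WT round spermatids. It was in 12 of the 28 that fell and had a promoter entry. Its share among all genes that rose or fell was not computed, so these small counts have no background. The promoters listed were not limited to genes on the array, so the members and the background are unlike sets. A match is only a string of letters in this window.

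Signals below are array intensities after each array was rescaled to a trimmed mean of 500, and differences are in log2(signal + 16) ± SE with limma's p adjusted over all 9097 genes tested in that comparison; a difference was called at an adjusted p under 0.05. Genes below the median level of a comparison's arrays were not tested, and a probe set's level says nothing about another probe set's. Of the 51 members, 39 were tested in all 9 comparisons, and Ddx23, Ddx55 and Dhx37 in none. For 4 arrays the free-text description names another group than the title (IgG IP 1, WT polysome 1 and 2, KO polysome 1), and the titles were followed. The sums of 9 spermatocyte markers were 46560 to 49780 in WT spermatocytes against 15800 to 17110 in WT round spermatids, and those of 8 round spermatid markers were 30330 to 31970 against 100500 to 116200. The sums of 5 Leydig markers were 21780 to 21810 in WT Leydig arrays, 4272 to 4873 in WT spermatocytes and 668.5 to 677.6 in WT round spermatids. In bulk RNA, fewer cells of a type and less RNA per cell cannot be told apart.

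Each KO group had less Ddx25 than its WT counterpart. In polysomes its signal was 14830, 21150 and 14620 on the WT arrays and 1063, 598 and 805 on the KO arrays. In spermatocytes it was 16790, 15360, 14470 and 13000 in WT and 3000, 2990, 3278 and 3048 in KO. No KO array reached the lowest WT array in either source. Round spermatids had 18440, 16170 and 15470 in WT and 4596, 4241 and 3865 in KO, and the Leydig fraction 13910 and 14200 in WT and 3524 and 3524 in KO. The differences were -4.35 ± 0.27 in polysomes (adjusted p = 0.00017), -2.26 ± 0.08 in spermatocytes (1.4e-07), -1.97 ± 0.10 in round spermatids (7.44e-06) and -1.99 ± 0.02 in the Leydig fraction (2.38e-05). A signal thus remained in every KO group; the sources used here do not say whether the probe set lies inside the deleted part of the gene. Ddx25 did not pass the test between WT round spermatids and WT spermatocytes (0.17 ± 0.10, adjusted p = 0.144), and under quantile normalization it was called lower in round spermatids (-0.38, adjusted p = 3.75e-05).

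**Figure D1:**
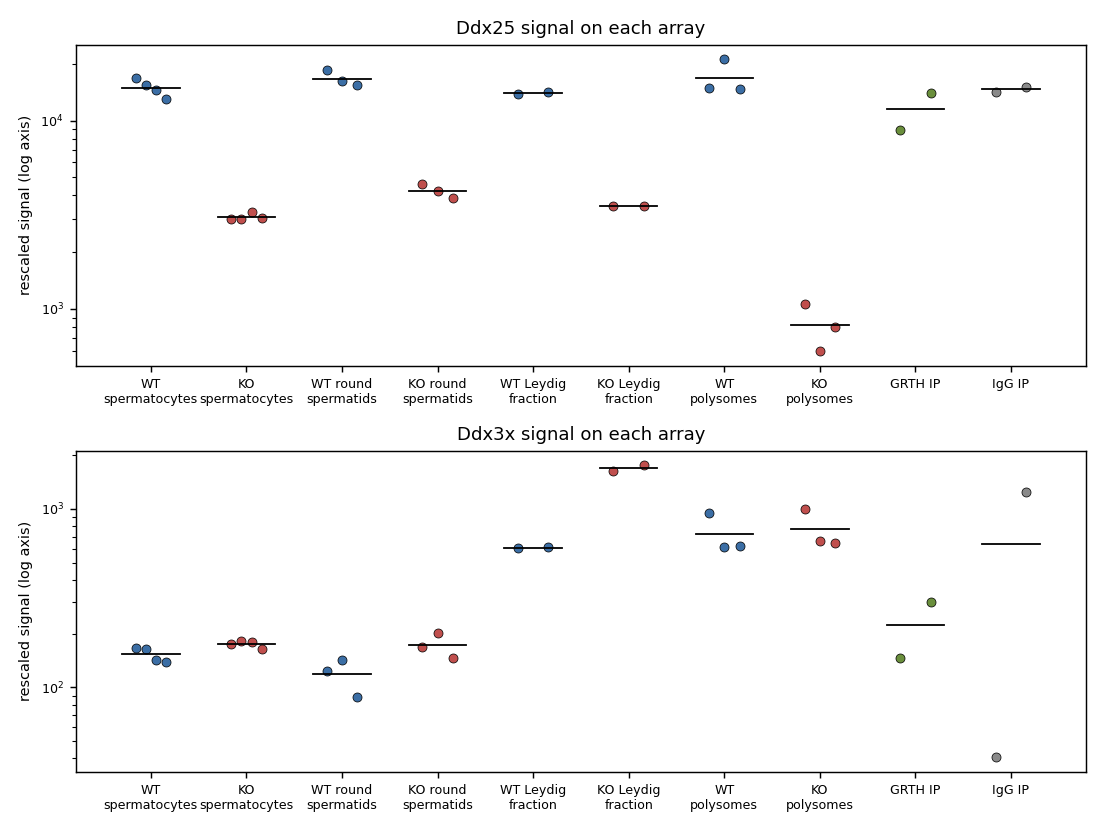
Rescaled signal (log axis) of Ddx25 (top) and Ddx3x (bottom) on each of the 28 arrays, grouped by source; points are arrays and bars are group means. Ddx25 lies lower in each KO group than in the matching WT group, with the lowest arrays in KO polysomes, and Ddx3x is highest in the KO Leydig fraction.

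The first comparison asked how the helicases change as wild-type cells pass from meiosis to the haploid stage. Most fell: of 46 members tested, 33 were lower and 8 higher in round spermatids than in spermatocytes, where 51% of all genes tested were lower and 36.2% higher. The median difference was -0.757 over the members and -0.235 over all genes tested. Arrays of the 2 stages did not overlap for 39 of the 46 members and for 85.4% of all genes tested. By role, 12 of 16 ribosome and mitochondrial helicases fell and 3 rose; 10 of 15 helicases of germ cells, export, translation and decay fell and 3 rose; 6 of 10 splicing helicases fell and 2 rose; and all 5 tested in innate sensing, genome maintenance and other roles fell.

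The largest fall was that of Ddx51, a helicase of large ribosomal subunit assembly. Its signal was 2408, 2382, 2606 and 2581 on the spermatocyte arrays and 389, 329.7 and 404 on the round spermatid arrays, -2.69 ± 0.08, adjusted p = 6.02e-09. Every spermatocyte array was far above every round spermatid array. Ddx28, needed for mitochondrial ribosomes, went from 504, 598, 595 and 617 to 85.9, 95.7 and 109 (-2.40 ± 0.09, adjusted p = 2.3e-08). Ddx52, a small subunit helicase, went from 1323, 1413, 1303 and 1290 to 294, 322 and 293 (-2.08 ± 0.06, adjusted p = 6.02e-09). Both were separated completely between the stages, as were 85.4% of all genes tested. Other nucleolar helicases fell by less: Ddx18 -1.71, Ddx47 -1.61, Ddx56 -1.28, Ddx27 -1.05 and Ddx24 -0.74.

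Among the helicases of export, translation and decay, Ddx19b, which strips proteins from messenger RNA at the nuclear pore, had 2597, 2536, 2778 and 2671 in spermatocytes and 420.5, 471 and 554 in round spermatids (-2.43 ± 0.09, adjusted p = 1.77e-08). Dhx9, a nuclear RNA and DNA helicase, had 4047, 3907, 4573 and 4713 against 704, 865 and 848 (-2.40 ± 0.10, adjusted p = 3e-08). Ddx43, a cancer-testis antigen, had 1418, 1432, 1573 and 1561 against 295, 291 and 332 (-2.23 ± 0.07, adjusted p = 7.6e-09). In all 3 the stages did not overlap, as in 85.4% of all genes tested. Ddx6, a translation repressor of processing bodies, went from 2436, 2500, 2153 and 2176 to 518, 529.7 and 479 (-2.15 ± 0.07, adjusted p = 1.21e-08). The export helicases Ddx39a and Ddx39b, of the complex that hands messenger RNA to its export receptor, fell by 2.00 and 1.51. Among splicing helicases the largest falls were those of Dhx38, which acts in the second step of splicing (-1.45 ± 0.14, adjusted p = 7.97e-06), and Ddx42, which binds the U-type small nuclear particles (-1.12 ± 0.08, adjusted p = 1.29e-06). Ddx11, a DNA helicase of sister chromatid cohesion, fell by 1.93.

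A few members went the other way. Ddx20, a core part of the SMN complex that assembles small nuclear particles, had 6887, 6604, 7465 and 7223 in spermatocytes and 13710, 12790 and 14280 in round spermatids (0.95 ± 0.07, adjusted p = 1.06e-06). Its lowest round spermatid array was well above its highest spermatocyte array, where 85.4% of all genes tested did not overlap between the stages. Dhx8, which releases spliced messenger RNA, had 1254, 1270, 1365 and 1398 against 1961, 1955 and 2163 (0.61 ± 0.07, adjusted p = 2.33e-05). The other rises were 0.57 for Ddx50, 0.51 for Dhx36, 0.46 for Dhx35, 0.41 for Ddx10, 0.38 for Ddx5 and 0.33 for Ddx49. Ddx4, with 13090, 12970, 9687 and 9378 in spermatocytes and 13590, 13000 and 9648 in round spermatids, did not pass the test (0.10 ± 0.16, adjusted p = 0.574), and its groups overlapped; under quantile normalization it was called lower (-0.35, adjusted p = 0.0294). With the replicate number as a block, which left out spermatocyte array 4, Dhx15 (-0.20, adjusted p = 0.03) and Dhx32 (0.17, adjusted p = 0.0443) also passed, and no call was lost. The markers of the stages moved as well: 7 of 9 spermatocyte markers fell and 1 rose, and their part in these differences was not tested.

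**Figure D2:**
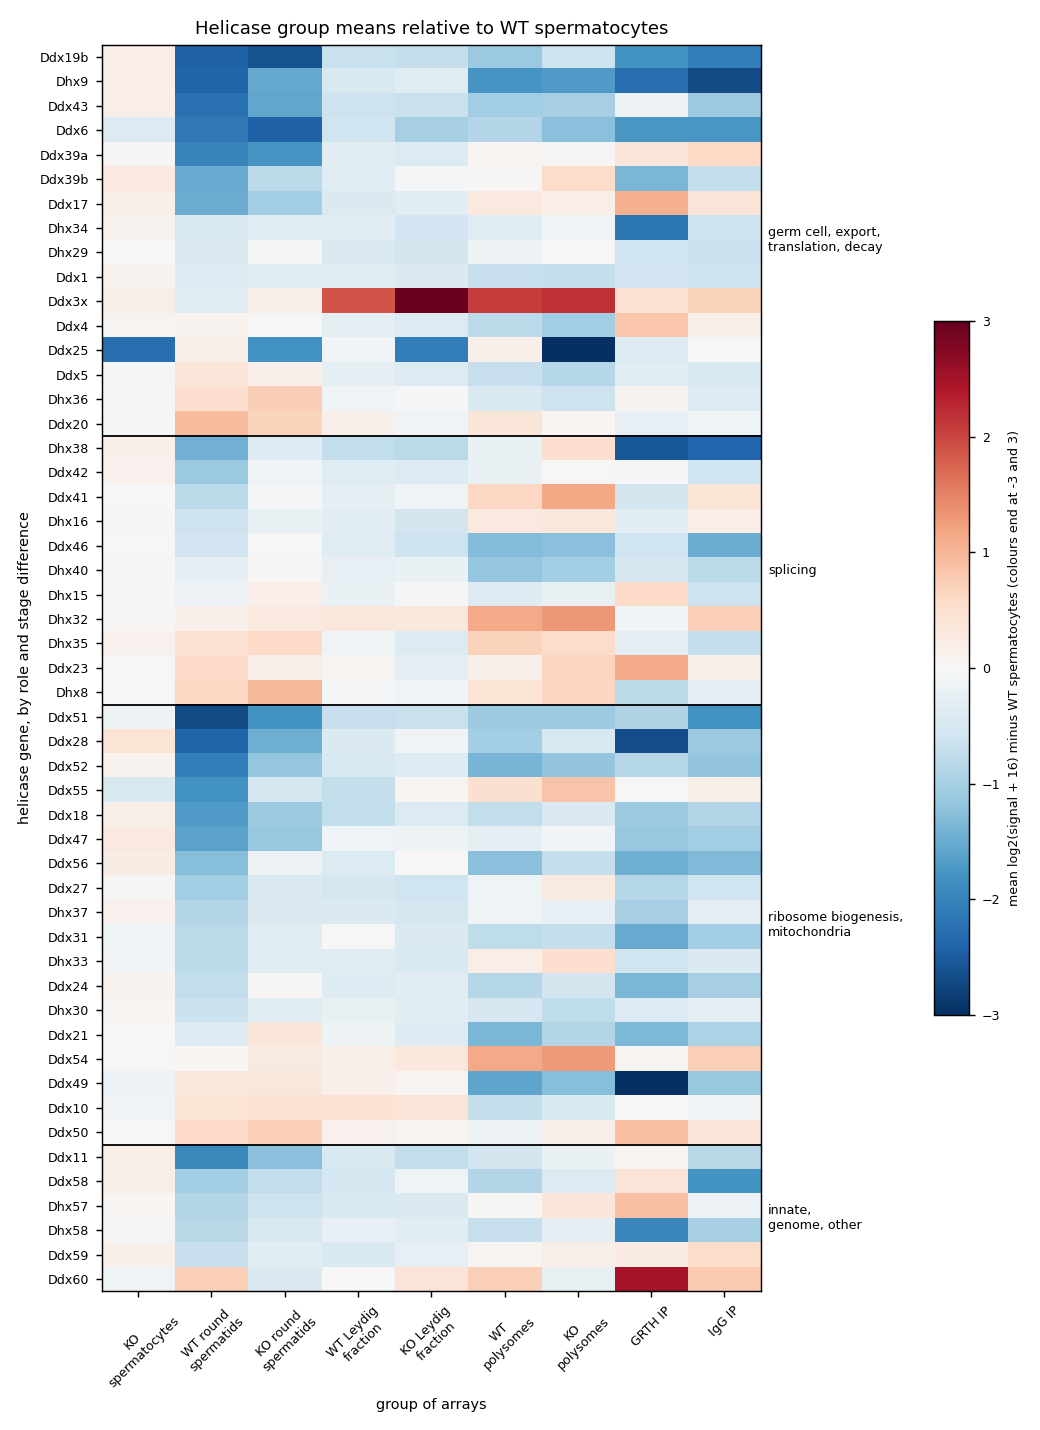
Mean log2(signal + 16) of each of the 51 helicases in 9 groups, minus its own mean in WT spermatocytes; rows are genes ordered by role and then by the WT round spermatid difference, blue is lower and red higher, and colours end at -3 and 3. The WT round spermatid column is mostly blue, from -2.69 for Ddx51, the KO round spermatid column is paler in most of those rows, and Ddx3x is red in the Leydig and polysome columns.

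For 5 of the 24 members with 2 or more probe sets tested, probe sets of the same gene were called in opposite directions between the stages (Ddx3x, Ddx5, Ddx10, Ddx17 and Dhx36). For Ddx5, a co-regulator of transcription and microRNA processing, the probe set used here had 20360, 18410, 15970 and 15150 in spermatocytes and 25500, 23390 and 19330 in round spermatids, while another had 1374, 1462, 1372 and 1385 against 393, 412 and 369, a difference of -1.80 ± 0.08. The first lay higher in round spermatids with overlapping arrays, the second lower on every array. For Dhx36, which resolves G-quadruplexes, the probe set used rose (0.51) and the other 2 fell, with differences of -0.63 ± 0.08 and -0.78 ± 0.10. The other 4 probe sets of Ddx5 were not called, with differences of 0.12 to 0.47. The rises of Ddx5, Ddx10 and Dhx36 were thus called for 1 probe set each. That of Ddx5 lost its call without WT round spermatid 1 (0.29) or 2 (0.36), and under quantile normalization Ddx5 was called lower (-0.23, adjusted p = 0.00143).

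**Figure D3:**
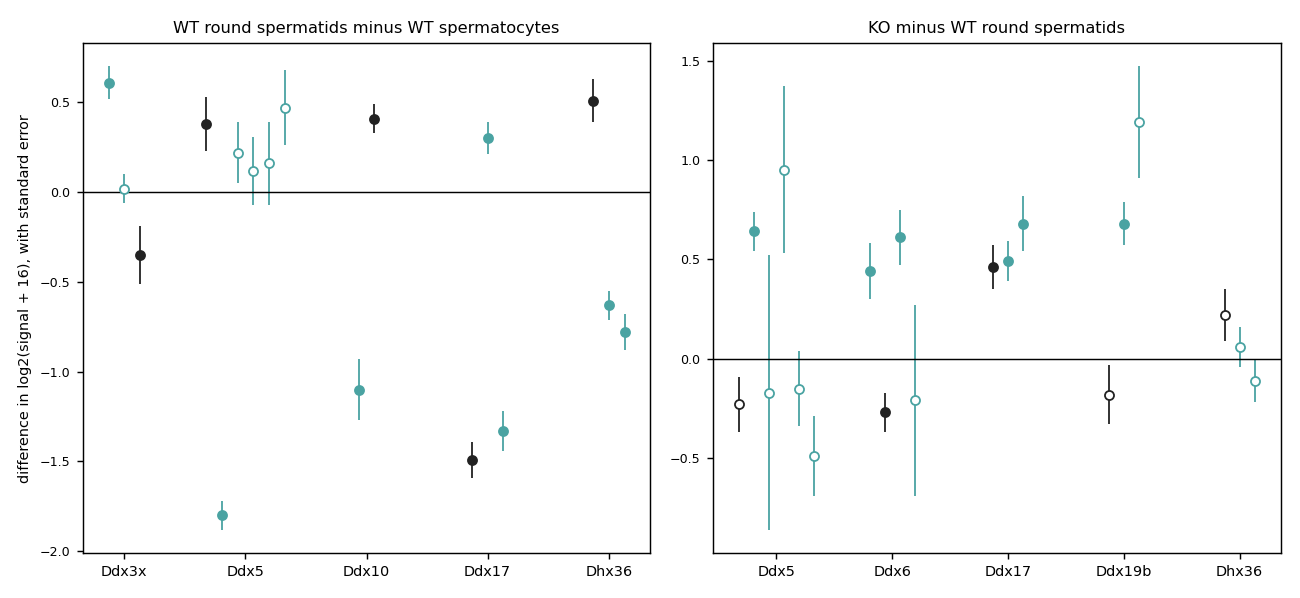
Difference in log2(signal + 16) ± SE for each probe set of 5 members in WT round spermatids minus WT spermatocytes (left) and of 5 members in KO minus WT round spermatids (right). Black points are the probe sets used for the gene, teal points its other probe sets, and filled points passed an adjusted p of 0.05 over the probe sets above the median level. Among others, Ddx5 and Dhx36 on the left, and Ddx5, Ddx6 and Ddx19b on the right, have points on both sides of 0.

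In KO round spermatids most helicases were higher than in WT round spermatids: of 43 members tested, 28 were higher and 3 lower, where 41% of all genes tested were higher and 22.4% lower. The median difference was 0.372 over the members and 0.150 over all genes tested. These tests use the same WT round spermatid arrays as the stage comparison above, so a chance deviation of those arrays enters both. By role, 11 of 15 ribosome and mitochondrial helicases rose and none fell; 8 of 10 splicing helicases rose and none fell; 6 of 15 of germ cells, export, translation and decay rose and 3 fell; and 3 of 3 in the remaining roles rose.

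The largest difference was that of Ddx56, a nucleolar helicase, with 232, 356 and 391 on the WT arrays and 668, 744 and 688 on the KO arrays (1.09 ± 0.17, adjusted p = 0.00116). Ddx51 had 389, 329.7 and 404 in WT and 679.9, 689.8 and 773 in KO (0.91 ± 0.10, adjusted p = 0.00017). Ddx52 had 294, 322 and 293 against 578, 619.5 and 555 (0.91 ± 0.07, adjusted p = 5.42e-05). In these 3 members of ribosome assembly every KO array was above every WT array, and all stayed below the WT spermatocyte arrays. For Ddx56 that gap was narrow, with 743.6 on the highest KO array and 746.5 on the lowest WT spermatocyte array. The genotypes did not overlap for 34 of the 43 members and for 68.6% of all genes tested. Ddx24 (0.78 ± 0.08), Ddx21 (0.73 ± 0.13), Ddx18 (0.63 ± 0.09) and Ddx27 (0.61 ± 0.08), also nucleolar, rose too, while Ddx10, Ddx49, Ddx50 and Ddx54 did not pass, with differences from 0.02 to 0.20.

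Of the splicing helicases, Dhx38 had 146, 117 and 177 in WT and 294, 298 and 377 in KO round spermatids (1.07 ± 0.15, adjusted p = 0.000688). Ddx42 had 264, 269 and 217 against 453, 558 and 558 (1.02 ± 0.11, adjusted p = 0.000218), the KO arrays lying near those of WT spermatocytes (551, 596, 541 and 552). Ddx41 (0.76 ± 0.16), Ddx46 (0.58 ± 0.07), Dhx16 (0.40 ± 0.07), Dhx15 (0.36 ± 0.07), Dhx8 (0.35 ± 0.07) and Dhx40 (0.32 ± 0.06) rose as well. Dhx35 and Dhx32, which were placed in this role group, did not pass, at 0.12 and 0.16. Dhx8 thus rose both from spermatocytes to round spermatids in WT and again in KO round spermatids (2700, 2562 and 2517), whereas Dhx38 and Ddx42 had fallen in WT.

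Dhx9 had 704, 865 and 848 in WT and 1425, 1412 and 1553 in KO round spermatids (0.85 ± 0.09, adjusted p = 0.000215), and Ddx39b 896, 946 and 1107 against 1524, 1670 and 1668 (0.72 ± 0.09, adjusted p = 0.000445). Ddx43 had 295, 291 and 332 against 518, 512 and 464 (0.68 ± 0.08, adjusted p = 0.00028). The KO arrays of all 3 were above the WT arrays, where 68.6% of all genes tested did not overlap between genotypes. The members that fell were Ddx25, Ddx20 (13710, 12790 and 14280 in WT, 12220, 10940 and 10530 in KO, -0.28 ± 0.08, adjusted p = 0.0199) and Ddx6 (518, 529.7 and 479 against 399, 419 and 439, -0.27 ± 0.07, adjusted p = 0.0121). The fall of Ddx20 lost its call without WT round spermatid 1 (-0.27), without KO round spermatid 2 (-0.26) or 3 (-0.23), and under quantile normalization its sign turned (0.03). It was also lost without the level filter (adjusted p = 0.0781) and with close arrays averaged (0.0536). The fall of Ddx6 holds for the probe set used; 2 others of its probe sets rose in KO round spermatids, by 0.44 ± 0.14 and 0.61 ± 0.14. For the probe set used the call was lost without the level filter (adjusted p = 0.0574), with close arrays averaged (0.117) and in the fit over all 28 arrays (0.629). Ddx4, the germ cell helicase of the chromatoid body, did not pass, with 13590, 13000 and 9648 in WT and 12270, 11400 and 10100 in KO (-0.09 ± 0.14, adjusted p = 0.598). With the replicate block Ddx5 was also lower (-0.23, adjusted p = 0.0249), for the probe set used. Mean signals of its other probe sets went both ways. Those higher in KO had 1305 in WT and 2693 in KO, 391.5 and 618.4, and 367.3 and 429.3. Those lower in KO had 17120 in WT and 15160 in KO, and 9212 and 6408. With the spread shared over all 28 arrays 13 members were called in this comparison. The share of all genes called in that fit is not given here.

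Spermatocyte markers moved in the same arrays: 6 of 9 were higher in KO round spermatids, none was lower, and their sums were 15800 to 17110 on WT and 24620 to 25730 on KO arrays, against 46560 to 49780 in WT spermatocytes. None of those markers was near 0 in WT round spermatids; Sycp1 had 1763 to 2038 and Sycp3 2151 to 2874. All 10 elongating spermatid markers were lower, with sums of 294200 to 411200 in WT and 197600 to 251900 in KO. The part of either in the helicase differences was not tested. Members below the level filter gave 2 further calls when no filter was applied: Ddx28 higher (0.94 ± 0.19, adjusted p = 0.0142) and Ddx60, an interferon-induced helicase, lower (-1.15 ± 0.30, adjusted p = 0.0348).

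**Figure D4:**
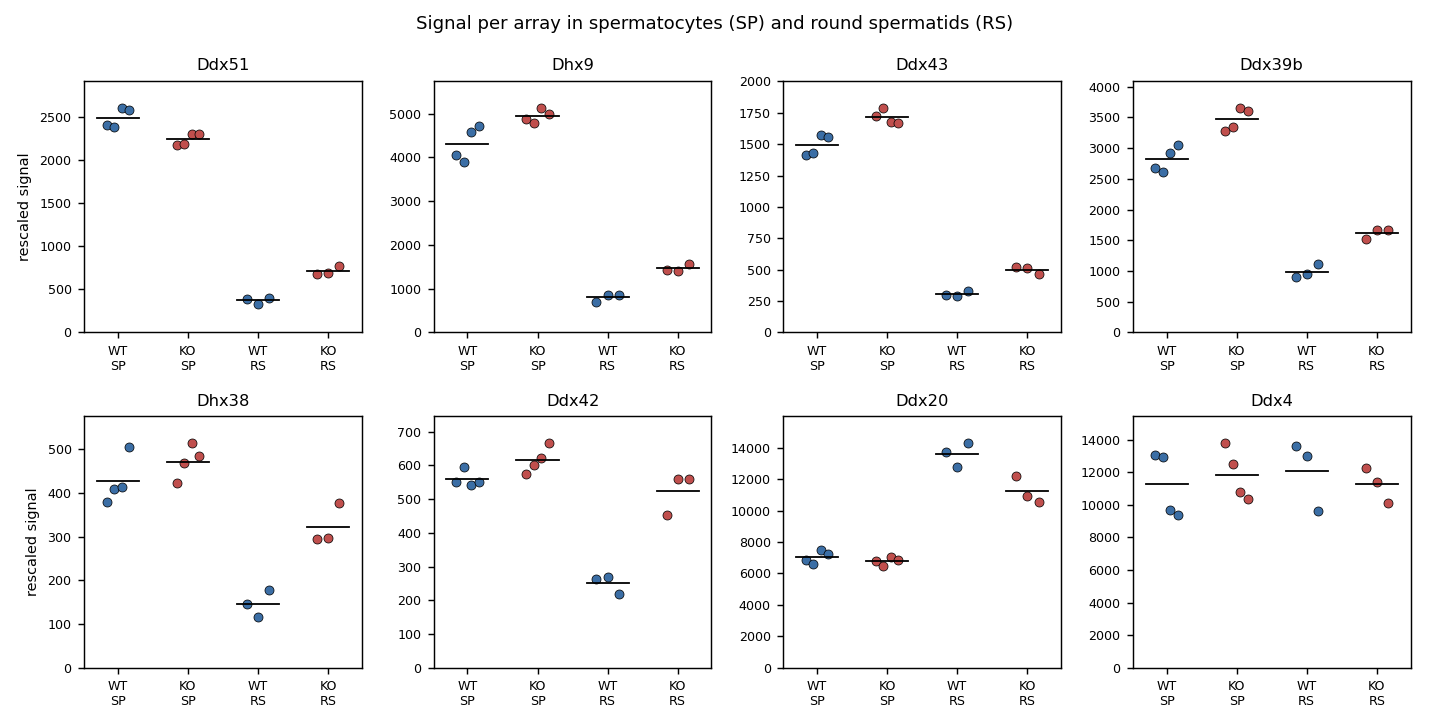
Rescaled signal of 8 helicases on each spermatocyte (SP) and round spermatid (RS) array, WT in blue and KO in red; points are arrays, bars are group means and each axis starts at 0. Ddx51, Dhx9, Ddx43, Ddx39b, Dhx38 and Ddx42 are lower in WT RS than in WT SP and higher in KO RS than in WT RS, Ddx20 has the opposite order, and Ddx4 overlaps between groups.

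Spermatocytes showed smaller differences between genotypes. Of 47 members tested, 8 were higher and 4 lower in KO, where 19.6% of all genes tested were higher and 17.8% lower; the median was 0.044 over the members and 0.032 over all genes. Ddx28 had 504, 598, 595 and 617 in WT and 747, 816, 759 and 744 in KO (0.40 ± 0.07, adjusted p = 0.00147). Ddx39b had 2681, 2619, 2921 and 3053 against 3276, 3341, 3654 and 3601 (0.30 ± 0.06, adjusted p = 0.00499). Ddx47, of small subunit assembly, had 1420, 1441, 1370 and 1344 against 1839, 1840, 1619 and 1563 (0.29 ± 0.06, adjusted p = 0.00563). None of these overlapped between genotypes, where 16 of the 47 members and 38.3% of all genes tested did not overlap. Ddx56 (0.22), Ddx43 (0.20), Dhx9 (0.20), Ddx19b (0.19) and Ddx18 (0.18) also rose. Besides Ddx25, the members that fell were Ddx6 (2436, 2500, 2153 and 2176 in WT, 1758, 1871, 1614 and 1733 in KO, -0.41 ± 0.07, adjusted p = 0.00127), Ddx49 (2048, 2081, 2256 and 2292 against 1926, 1876, 1902 and 1927, -0.18 ± 0.05, adjusted p = 0.016) and Ddx51 (2408, 2382, 2606 and 2581 against 2175, 2192, 2300 and 2309, -0.15 ± 0.05, adjusted p = 0.0338).

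Some of these calls were lost when 1 array was left out. That of Dhx9 was lost without WT spermatocyte 1 or 2 or any 1 of the 4 KO arrays (differences of 0.16 to 0.22, adjusted p = 0.0552 to 0.0929). That of Ddx18 was lost without WT 2 or 3 or KO 3 or 4 (0.16 to 0.17), and that of Ddx51 without WT 3 or 4 or KO 1 or 2 (-0.14 to -0.13). All 3 were also lost without the level filter and with medians centred. Ddx43 was lost in both settings too (adjusted p = 0.0542 and 0.125). Without the filter the calls of Ddx49 (adjusted p = 0.0628) and Ddx56 (0.0529) were lost as well. With medians centred those of Ddx19b (0.127) and Ddx39b (0.065) were lost.

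Markers of other stages and cells moved between the same arrays. All 10 elongating spermatid markers were lower in KO spermatocytes, with sums of 122900 to 152300 in WT and 72540 to 79920 in KO. Of 8 round spermatid markers 6 were lower (30330 to 31970 against 23250 to 24700), and 4 of 5 Leydig markers were higher (4272 to 4873 against 6047 to 6586). Their part in the helicase differences was not tested.

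Of the 8 that were higher in KO spermatocytes, 7 were tested in round spermatids. Of those, 6 were higher there too, on separate arrays (Ddx39b, Ddx47, Ddx56, Ddx43, Dhx9 and Ddx18). Among the 43 members tested there 65.1% were higher, and among all genes 41%. Of the 4 that were lower, Ddx25 and Ddx6 were lower in both, Ddx6 for the probe set used. Means of other Ddx6 probe sets went both ways in spermatocytes. They were 522.1 in WT and 591.8 in KO for 1, and 706.6 and 609.8 for another. With the replicate block 14 members rose and 4 fell in KO spermatocytes, the added ones being Ddx1, Ddx17, Ddx3x, Ddx52, Ddx58 and Dhx34. The shares of all genes given for KO spermatocytes are from the fit without the block. Without the block, Ddx17 and Ddx5 each had 1 probe set called higher and 1 called lower in KO spermatocytes. Spermatocyte arrays 1 and 2, and 3 and 4, were closer to each other within a genotype than the other pairs, and with each pair averaged only 3 members were called. With the spread shared over all 28 arrays 1 was called, and every probe set tested on its own gave 19 calls. With medians centred, the split became 3 higher and 3 lower. For these other settings the share of all genes is not given here.

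The difference between the 2 knockout effects was tested directly. It was positive and called for 24 of 46 members and negative for 1, where 32.3% of all genes tested were higher and 13.7% lower in this contrast; the medians were 0.322 over the members and 0.140 over all genes. Ddx51 had the largest value (1.06 ± 0.10, adjusted p = 4.87e-06), since it was lower in KO spermatocytes and higher in KO round spermatids. Next came Dhx38 (0.92 ± 0.18), Ddx42 (0.89 ± 0.12), Ddx56 (0.87 ± 0.18), Ddx52 (0.82 ± 0.08) and Ddx41 (0.77 ± 0.22). By role the contrast was called positive in 9 of 16 ribosome and mitochondrial helicases, 8 of 10 splicing helicases, 5 of 15 of germ cells, export, translation and decay, and 2 of 5 others. The 1 negative member was Ddx19b (-0.37 ± 0.12, adjusted p = 0.0262), which lost its call without WT round spermatid 3 (-0.27), without KO round spermatid 1 or 3 (-0.32 each) and with the replicate block (adjusted p = 0.0529). Its other 2 probe sets had the opposite sign, both past the threshold. With the block Ddx28 also lost its call (adjusted p = 0.111), and Ddx25, Ddx39a and Dhx30 gained one. For Ddx11 (0.50 ± 0.14) the other probe set was called the opposite way (-0.65 ± 0.16). With close arrays averaged 11 members were called, and with the spread shared over all 28 arrays 1. Shares of all genes in those fits are not given here.

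**Figure D5:**
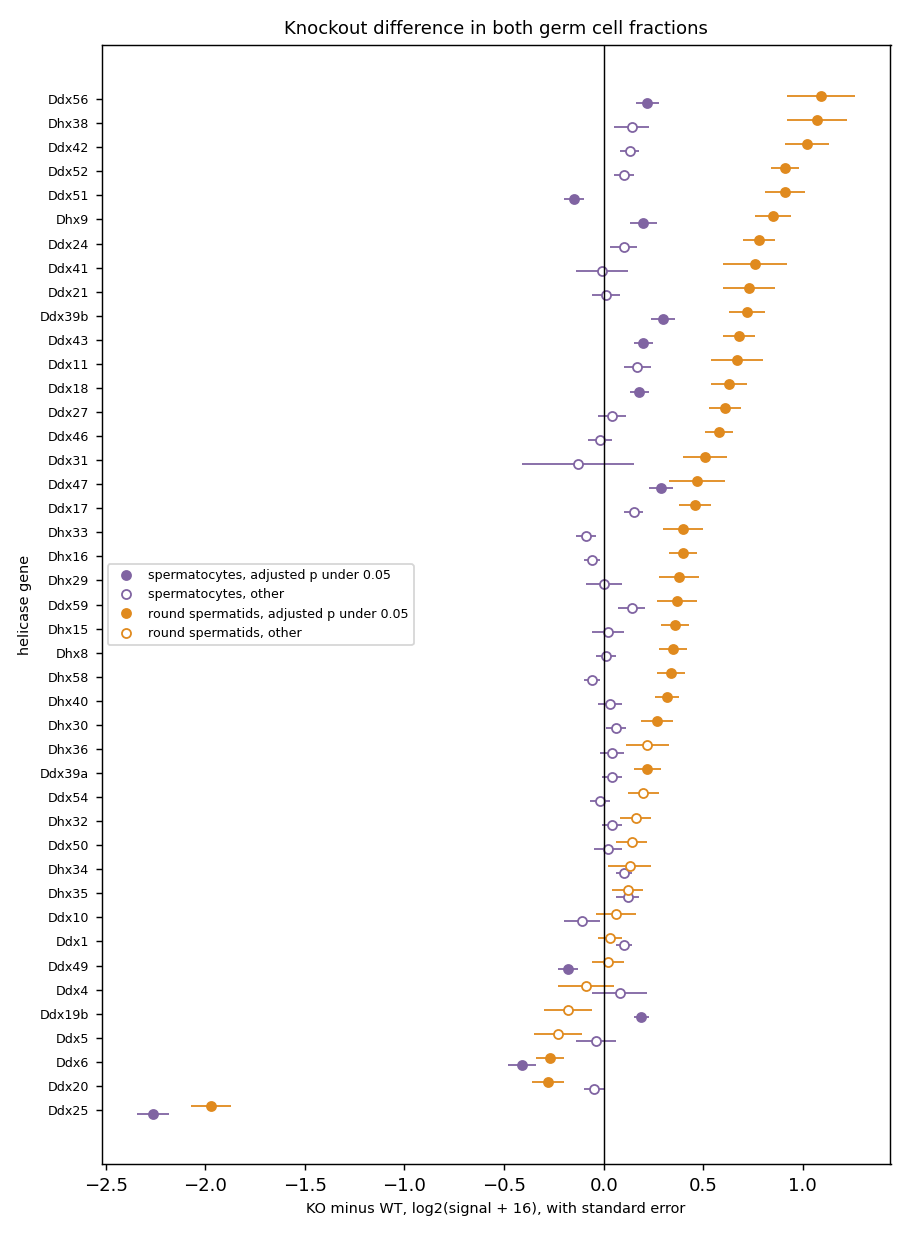
KO minus WT difference in log2(signal + 16) ± SE for the 43 helicases tested in both spermatocytes (purple) and round spermatids (orange), ordered by the round spermatid value; filled points passed an adjusted p of 0.05. Most orange points lie to the right of 0, up to 1.09 for Ddx56, most purple points lie near 0, and Ddx25 is far to the left in both.

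Total polysome RNA gave few calls. Of 44 members tested, none was higher and only Ddx25 was lower, where 0.572% of all genes tested were higher and 5.77% lower; at an unadjusted p under 0.05 there were 1 higher (Dhx38) and 1 lower (Ddx25). The median was 0.168 over the members and 0.125 over all genes. Dhx38 had the largest positive difference, with 521, 314 and 298 in WT and 823, 489.5 and 553 in KO (0.71 ± 0.29, adjusted p = 0.222). Ddx39b had 3949, 3254 and 1829 against 6276, 4319 and 2606 (0.53 ± 0.38, adjusted p = 0.475). Within each genotype the arrays of both spread over a wide range, and the same-numbered KO array was the higher in all 3 pairs. Same-numbered polysome arrays deviated together in all 3 pairs, and with the replicate number as a block 6 members were higher: Dhx38 (adjusted p = 0.00711), Ddx28 (0.0258), Ddx56 (0.0303), Ddx39b (0.0312), Ddx41 (0.0365) and Ddx19b (0.0467). The shares of all genes given above are from the fit without the block, so they are no background for these 6. Ddx4 (6203, 5577 and 7606 in WT, 4709, 4954 and 6781 in KO) and Ddx20 (8493, 10090 and 8648 against 6551, 7918 and 7409) did not pass with or without the block. All 10 elongating spermatid markers were lower in KO polysomes, with sums of 209800 to 435700 in WT and 28660 to 55210 in KO, and their part was not tested.

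Against germ cell RNA, taken as the mean of WT spermatocytes and round spermatids, WT polysome RNA was higher for 16 and lower for 15 of 46 members, where 35.9% of all genes tested were higher and 31.6% lower. Polysome RNA came from whole testis, so its cell mixture and its ribosome-bound state cannot be told apart here. The split depended on scaling: 10 higher and 16 lower under quantile normalization, 4 and 31 with medians centred, and 0 and 29 on the deposited scale. The shares of all genes above are from the main fit, so they are no background for these splits. Among the values that kept their sign under each of these were the rise of Ddx3x (2.28 ± 0.17, adjusted p = 6.52e-07) and the falls of Ddx49 (-1.75 ± 0.15, adjusted p = 2.15e-06), Dhx40 (-1.01 ± 0.10, adjusted p = 7.95e-06) Ddx21 (-1.18 ± 0.17, adjusted p = 0.000103) and Ddx4 (-0.85 ± 0.16, adjusted p = 0.000717). On the deposited scale the rise of Ddx3x lost its call (0.80, adjusted p = 0.21).

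The Leydig fraction was compared with germ cells and between genotypes. In WT it was set against the mean of WT spermatocytes and WT round spermatids, so a value between those stages can count as higher. By that contrast 16 of 46 members were higher and 6 lower, where 30.7% of all genes tested were higher and 21.9% lower. With medians centred the split was 13 and 13. Shares of all genes under settings other than the main fit are not given here. Ddx3x, an X-linked helicase of translation initiation, stood apart with 602 and 613 in the WT Leydig fraction, 167, 165, 142 and 139 in WT spermatocytes and 124, 143 and 88.2 in WT round spermatids (2.06 ± 0.14, adjusted p = 3.13e-06). Every Leydig array was above every germ cell array, and its other probe sets were higher too, by 1.01 ± 0.08 and 1.96 ± 0.07. The probe set used is of a kind that can match related transcripts, so cross-matching is uncertain. The remaining positive differences were at most 0.75 (Ddx28). Every Leydig array of Ddx28 (402.6 to 437.4) was below every WT spermatocyte array (504.1 to 617.4). It was above only the WT round spermatid arrays (85.91 to 108.8). Mean signals of Ddx39a, Dhx9 and Ddx51 in the WT Leydig fraction also lay between those of the stages. The fraction also held germ cell RNA: its spermatocyte marker sums were 36980 to 37640, and Ddx4 had 9029 and 9352 there. Without WT Leydig array 1, 14 members were called in place of 22, and with the spread shared over all 28 arrays 3.

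In the KO Leydig fraction 14 of 45 members were higher and 17 lower than in WT, where 38.6% of all genes tested were higher and 39.3% lower. The 2 arrays of each genotype were almost identical, with an SD of log2 differences of 0.26 in WT and 0.24 in KO. With the spread shared over all 28 arrays 1 member was called, against 31 in the fit on these 4. Scaling moved the split as well, to 4 higher and 37 lower with medians centred. For neither setting is the share of all genes given here. Ddx3x had 602 and 613 in WT and 1632 and 1753 in KO (1.45 ± 0.04, adjusted p = 4.65e-05), and its other probe sets rose by 0.80 ± 0.05 and 1.35 ± 0.04; with the spread shared over all 28 arrays Ddx3x lost its call (adjusted p = 0.263). After it came Ddx58, the viral RNA sensor RIG-I (0.40 ± 0.04), Ddx56 (0.39 ± 0.02) and Ddx39b (0.35 ± 0.02); the largest falls after Ddx25 were those of Ddx6 (-0.39 ± 0.03), Dhx35 (-0.28 ± 0.04) and Ddx20 (-0.26 ± 0.03). Probe sets were called in opposite directions here for 5 members (Ddx5, Ddx6, Ddx11, Ddx21 and Ddx39a). Non-germ markers differed between the same arrays: all 5 Leydig markers were higher in KO, with sums of 41310 to 42010 against 21780 to 21810, and all 5 macrophage markers tested were higher, with sums over 6 markers of 6298 to 6351 against 2646 to 2715. Germ cell markers moved too: all 10 elongating spermatid markers were lower (173000 to 175300 in WT against 120700 to 123000 in KO), as were 5 of 8 round spermatid markers (52160 to 53070 against 39930 to 40510). The part of these markers in the rise of Ddx3x was not tested.

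The pulldown asked which polysome transcripts came down with GRTH antibody more than with IgG. No member of 42 tested was called, where 0% of all genes tested were higher and 0% lower in limma's fit; at an unadjusted p under 0.05 there were 1 member higher and 2 lower, and 364 genes of all tested. With the spread shared over all 28 arrays 14 members were called, 7 higher and 7 lower, and with the replicate number as a block 1 (Ddx49, adjusted p = 0.0152), though 2 pairs do not show that the numbers pair these arrays. The 0% shares are from the fit on the pulldown arrays alone, without a block. They are thus no background for the 14 or for Ddx49. Ddx25 transcript itself had 8942 and 13960 in the GRTH IP and 14170 and 15120 with IgG (-0.39 ± 0.59, adjusted p = 0.977). Ddx60 had 782 and 325 against 112 and 184 (1.70 ± 0.65, adjusted p = 0.977), and Dhx15 9756 and 7365 against 4200 and 3261 (1.19 ± 0.59, adjusted p = 0.977). Ddx4 had 23120 and 16830 against 13150 and 12060 (0.65 ± 0.58, adjusted p = 0.977). In these 3 both GRTH arrays were above both IgG arrays; 34.1% of all genes tested did not overlap between these groups. The lowest values were those of Ddx49 (223 and 163 against 1286 and 737, -2.26 ± 0.61, adjusted p = 0.977) and Dhx34, a helicase of nonsense-mediated decay (216 and 233 against 649.6 and 721, -1.54 ± 0.58, adjusted p = 0.977). Arrays of 1 kind differed widely, with an SD of log2 differences of 1.305 between the GRTH arrays and 1.141 between the IgG arrays. These RNAs were labelled in 2 steps and the other RNAs in 1, per the labels' protocols. For Ddx3x the IgG arrays alone had 40.6 and 1238.

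Partners of these enzymes were followed through a list of 58 cofactors, of which 52 were on the array. In KO round spermatids 27 of the 45 tested rose and 3 fell, where 41% of all genes rose and 22.4% fell, and the median was 0.33 against 0.15 over all genes. In KO spermatocytes 9 of 49 rose and 3 fell, where 19.6% of all genes rose and 17.8% fell. In WT round spermatids against spermatocytes 8 of 49 rose and 35 fell, where 36.2% of all genes rose and 51% fell. Edc4, a scaffold of the decapping complex, rose by 1.67 ± 0.08 in KO round spermatids (adjusted p = 7.39e-06) where the difference between the WT stages had been -2.50. The spliceosome proteins Prpf8 and Sf3b1 rose by 1.04 ± 0.08 (4.22e-05) and 0.97 ± 0.08 (5.64e-05). Dazl and Piwil1 are in this list and also among the germ cell markers. Of 30 other RNA helicases and helicase-like genes, 26 were on the array; 11 of 19 tested rose and 2 fell in KO round spermatids (41% and 22.4% over all genes), and the smallest adjusted p-values were those of Eif4a2, a translation initiation helicase (-0.76 ± 0.06, adjusted p = 4.67e-05), and Tdrd9, a helicase of the piRNA pathway (0.81 ± 0.06, 4.68e-05). In neither list was any gene called in KO polysomes or in the pulldown.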

How the data were processed

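RNA from mouse testis fractions, polysomes and immunoprecipitates was measured on 28 arrays. The deposited values are array intensities, 1 linear signal per probe set, made with GCOS per the submitters' processing notes (version not given in the sources used here). By their values, 24 deposited columns were scaled to a trimmed mean of 500 and 4 polysome columns were not (trimmed means 167.8, 54.54, 130 and 29.75). Each array was therefore rescaled to a trimmed mean of 500, leaving out a fraction of 0.02 at each end, and log2(signal + 16) was taken. No detection calls were used, and array number limits the precision.

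The platform annotation gave 1 symbol for 34945 of 45101 probe sets, several for 932 and none for 9160, with 64 controls left out. It can be old; 34741 Entrez identifiers were found in the RefSeq gene list and no symbol changed. Each gene was represented by the probe set of highest mean over all arrays. Genes at or above the median level of a comparison's arrays were tested (9097 in each) with limma 3.58.1 (lmFit and eBayes, R 4.3.3, package data.table at version 1.17.8) on the groups of that comparison, with Benjamini-Hochberg adjustment over all of them and a threshold of 0.05. The fit was tested on simulated data. Figures and promoter searches used Python 3.11.15, pandas 2.3.3, numpy 2.4.6 and matplotlib 3.10.9. Promoters came from RefSeq (GRCm38.p6).

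The members, the role groups and the gene lists were chosen with earlier results of these data known. Members were placed in role groups by hand, and their roles were not tested here. The genes to name were Ddx25, Ddx4, Ddx6, Ddx19b, Ddx3x, Ddx5, Ddx20, Ddx39b, Dhx9 and Dhx36, then up to 10 of the largest rises and 10 of the largest falls past the threshold in a comparison, the 3 smallest p-values in a direction where none passed, and the 4 smallest adjusted p-values of a list; other genes named were chosen after their values were seen. Ddx3y and Ddx19a are not analysed here.

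Replicate numbers come from the titles. Deviations from group means of same-numbered arrays correlated at 0.436, 0.668 and 0.665 in polysomes, 0.26 to 0.386 in spermatocytes, 0.138 to 0.247 in round spermatids, and 0.188 to 0.261 between WT round spermatids and WT spermatocytes, so the numbers were taken to pair these arrays. Between the WT stages, round spermatid array 3 (0.188) correlated best with a spermatocyte array of another number. The block used only numbers present in every group of a comparison. Spermatocyte array 4 was thus left out of the blocked fits between stages and of the contrast of knockout effects. With 2 pairs each, the Leydig arrays (0.028) and the immunoprecipitates (0.434) were not taken as paired. Alternatives were a pseudocount of 64, no level filter, every probe set, quantile normalization, median centring, the deposited scale, the replicate block, a fit over all arrays, close arrays averaged, arrays of conflicting description left out, and each array left out in turn.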

Additional observations from a re-analysis of the deposited data

Results flagged for a closer look

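In a group of 4 arrays, 1 array lay far from the other 3 for 3 helicases in WT spermatocytes: Ddx59 (354), Dhx35 (309.5) and Dhx33 (240). Chance alone sets apart about 1 in 20 groups.

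The knockout effect differed between round spermatids and spermatocytes, by the test of that difference, for 25 helicases. The value, as log2 with the effect in round spermatids minus that in spermatocytes, was in ribosome and mitochondrial helicases 1.06 for Ddx51, 0.87 for Ddx56, 0.82 for Ddx52, 0.72 for Ddx21, 0.69 for Ddx24, 0.57 for Ddx27, 0.54 for Ddx28, 0.49 for Dhx33 and 0.45 for Ddx18. In splicing helicases it was 0.92 for Dhx38, 0.89 for Ddx42, 0.77 for Ddx41, 0.60 for Ddx46, 0.45 for Dhx16, 0.34 for Dhx15, 0.34 for Dhx8 and 0.28 for Dhx40. In those of germ cells, export, translation and decay it was 0.65 for Dhx9, 0.48 for Ddx43, 0.42 for Ddx39b, 0.39 for Dhx29, 0.31 for Ddx17 and -0.37 for Ddx19b. Of the rest, Ddx11, the DNA helicase of cohesion, had 0.50 and Dhx58, the RNA sensor LGP2, had 0.40.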

How the results depend on the processing

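Calls of named helicases kept their direction and side of the threshold in all 171 cases with a pseudocount of 64, in 154 without the level filter (17 lost the call) and in 158 with the replicate block (11 gained a call and 2 lost one); with each array left out in turn 1234 stayed, 15 gained and 54 lost a call. Where an arm was left with 1 array, that array was assumed to vary like the other groups. The fit over all 28 arrays kept 98 cases, with 66 calls lost and 7 gained. Averaging close arrays kept 100 and lost 18. Median centring kept 142, with 12 signs turned, 11 calls lost and 6 gained. Quantile normalization kept 146, with 10 signs turned, 11 calls lost and 4 gained. The deposited scale, used for polysomes only, kept 22, with 12 signs turned, 2 calls lost and 2 gained. The cause of the changes above and below was not tested.

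Counts of helicases called moved as follows, and the share of all genes called under each setting is not given here. With the replicate block 7 were called in KO polysomes and 1, Ddx49, in the pulldown (adjusted p = 0.0152); the pairing of the pulldown arrays rests on a shared number only. On the deposited scale 0 were called in KO polysomes. In spermatocytes the 12 became 6 without the filter, 6 with medians centred, 19 with every probe set and 3 with close arrays averaged, and the 25 of the contrast of knockout effects became 11 with close arrays averaged. Without the filter 20 were called in the Leydig knockout comparison. In the fit over all 28 arrays, calls were 1 in spermatocytes, 13 in round spermatids, 1 in the Leydig knockout comparison, 14 in the pulldown, 1 in the contrast of knockout effects and 3 in WT Leydig against germ cells. Leaving out 1 array gave 1 to 1 in polysomes, 10 to 13 in spermatocytes, 28 to 34 in round spermatids, 22 to 27 in the Leydig knockout comparison, 0 to 0 in the pulldown, 39 to 42 between WT stages, 23 to 27 in the contrast, 14 to 27 in WT Leydig against germ cells (14 without WT Leydig array 1) and 26 to 34 in WT polysomes against germ cells. The block also changed 7 calls in WT Leydig and 2 in WT polysomes against germ cells, and 1 in the Leydig knockout comparison (Dhx36, adjusted p = 0.0537).

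Signs turned in these cases. Under quantile normalization the values were 0.03 for Ddx20 in KO round spermatids, -0.38 for Ddx25, -0.35 for Ddx4 and -0.23 for Ddx5 between WT stages, 0.16 for Ddx5 in the contrast of knockout effects, 0.21 for Ddx25 in WT Leydig and 0.24 for Ddx20 in WT polysomes against germ cells, and in KO Leydig -0.01 for Ddx41, -0.05 for Ddx59 and -0.01 for Dhx36. With medians centred they were, in KO Leydig, -0.13 for Ddx41, -0.13 for Ddx54, -0.07 for Ddx59, -0.14 for Dhx15, -0.20 for Dhx36 and -0.15 for Dhx9, and in WT polysomes against germ cells -0.54 for Ddx19b, -0.57 for Ddx25, -0.11 for Ddx47, -0.46 for Ddx6, -0.05 for Dhx16 and -0.06 for Dhx33. On the deposited scale WT polysomes against germ cells gave -0.54 for Ddx17, -1.41 for Ddx19b, -1.51 for Ddx25, -0.51 for Ddx39a, -0.79 for Ddx39b, -0.50 for Ddx41, -1.0 for Ddx47, -0.43 for Ddx54, -1.34 for Ddx6, -0.97 for Dhx16, -0.49 for Dhx32 and -0.79 for Dhx33. Without the arrays of conflicting description Ddx47 gave -0.11 there.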
